A study of Mus musculus with 38 samples.

Results

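The alpha-arrestins Arrdc1, Arrdc2, Arrdc3, Arrdc4 and Txnip were followed in mouse soleus muscle through fasting-induced torpor, using the transcription start site clusters that CAGE sequencing defines. A cluster was taken as belonging to a member when its most used position lay within 500 bp, on the same strand, of an annotated 5′ end of that gene. By this rule 4 of the 5 genes had a cluster, each exactly 1, so the values below come from 4 of 10819 clusters, and Arrdc1 had none. All mice were young adult C57BL/6J males, and each library came from the soleus of 1 animal. Mice fed ad libitum were sampled on day 1 (Pre), others on day 2 after food removal at low ambient temperature, when they were in the torpor bout (Mid), and others on day 3 after food was given back (Post). Experiment 1 held 4 Pre, 8 Mid and 4 Post libraries and, on day 2, 4 libraries each from mice fasted at high ambient temperature (HiT), mice fed at low ambient temperature (Fed) and mice fasted at low ambient temperature but kept out of torpor by touching (Dep). The sample labels disagree with the study's methods on whether the HiT and Fed mice had food, and the description from the methods is used here. Experiment 2 was an independent set of 2 Pre, 5 Mid and 3 Post libraries. The Mid animals were at different points of an oscillating metabolic rate when sampled, and the muscle was taken whole, with every cell type it holds.

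Alpha-arrestins are adaptor proteins with an arrestin fold. Most of them carry short proline and tyrosine motifs that recruit NEDD4 family ubiquitin ligases to membrane proteins such as receptors and transporters. Txnip also binds thioredoxin and lowers glucose uptake by acting on the glucose transporters GLUT1 and GLUT4, and together with Arrdc4 it is a classic target of the glucose-sensing factors MondoA and ChREBP with their partner MLX, while Arrdc2 and Arrdc3 are known to respond to fasting signals, glucocorticoids and FOXO factors in muscle and other tissues.

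The promoters of the 3 members with the most contrasting behaviour are shown first. Each sequence is the 250 bases before the RefSeq start of the gene (build GRCm38.p6), read 5′ to 3′ on the strand of the gene, with matches to the searched motifs in capitals. The Txnip sequence is chr3:96557707-96557956 on the plus strand, the Arrdc4 sequence is chr7:68749239-68749488 on the minus strand, and the Arrdc2 sequence is chr8:70839721-70839970 on the minus strand.
Txnip: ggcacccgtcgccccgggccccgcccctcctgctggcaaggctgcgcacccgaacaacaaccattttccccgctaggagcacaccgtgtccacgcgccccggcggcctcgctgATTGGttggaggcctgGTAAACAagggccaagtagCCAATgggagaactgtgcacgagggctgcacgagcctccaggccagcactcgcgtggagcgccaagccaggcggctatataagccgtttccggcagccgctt
Arrdc4: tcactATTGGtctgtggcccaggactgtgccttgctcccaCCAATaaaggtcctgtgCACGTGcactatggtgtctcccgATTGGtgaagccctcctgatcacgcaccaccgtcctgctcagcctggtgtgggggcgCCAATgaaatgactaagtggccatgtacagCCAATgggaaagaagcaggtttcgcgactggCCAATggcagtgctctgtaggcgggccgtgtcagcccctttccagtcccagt
Arrdc2: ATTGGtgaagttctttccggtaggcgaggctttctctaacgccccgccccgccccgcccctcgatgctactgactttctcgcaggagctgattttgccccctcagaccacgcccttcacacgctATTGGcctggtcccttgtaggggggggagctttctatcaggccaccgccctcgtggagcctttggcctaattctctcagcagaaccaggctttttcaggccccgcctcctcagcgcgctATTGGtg
In the Txnip promoter the capitals mark a FOXO site (TGTTTAC, here on the minus strand of the gene from 121 bases upstream) between 2 CCAAT boxes (CCAAT, 1 on each strand). The FOXO letters were present in 3.65% of 32817 mouse promoter windows of 300 bases (250 before and 50 after the start) and the CCAAT letters in 37.4%. In the Arrdc4 promoter the capitals mark an E-box (CACGTG, from 193 bases upstream), which 7.15% of the windows held, and 6 CCAAT boxes. The Arrdc2 promoter held 3 CCAAT boxes and no match to the other motifs. Both Arrdc3 windows that cover its CAGE peak held 1 CCAAT box, and the Arrdc1 window held none of the motifs. No member's window held the exact letters of the TATA box (TATAAA, in 13.6%) or the cyclic AMP response element (TGACGTCA, in 1.79%). None held the glucocorticoid response element (in 3 windows) or the carbohydrate response element (a pair of E-boxes, in 0 windows). So few windows of any gene match these last patterns that a missing match does not tell whether a member has the element. Versions with other letters were not searched. The Txnip sequence holds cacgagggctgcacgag and tatataa, which differ from the searched letters and so were not marked. All motifs were searched on both strands, the E-box letters are part of the paired one, and a match describes letters and not a bound site.

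The clusters lay where the annotation places these genes' first exons, in mm10 coordinates. Txnip (ENSMUSG00000038393.14) had a cluster of 841 bp at chr3:96557847-96558687 on the plus strand, with its peak exactly on an annotated 5′ end. Arrdc3 (ENSMUSG00000074794.10) had a cluster of 560 bp at chr13:80883328-80883887 on the plus strand, also with its peak on an annotated 5′ end. The Arrdc4 cluster (ENSMUSG00000042659.15, chr7:68748916-68749284, minus strand) spanned 369 bp with its peak 26 bp downstream of the nearest 5′ end. The Arrdc2 cluster (ENSMUSG00000002910.11, chr8:70839296-70839630, minus strand) spanned 335 bp with its peak 18 bp upstream of the 5′ end of a transcript annotated as a retained intron. That peak lies 184 bp downstream of the RefSeq start, so the Arrdc2 sequence above stops short of it. Arrdc1, whose protein is known for releasing vesicles from the plasma membrane, has 11 annotated 5′ ends on the minus strand of chr2:24925352-24935252, and no cluster fell in that span. The nearest cluster on its strand was 7600 bp away, and no value for Arrdc1 is given for this reason.

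Depth was high for all members with a cluster. Libraries held 18257657 to 39176649 tags in experiment 1 and 9359994 to 20914855 in experiment 2, and levels are given as TPM, tags scaled to 1000000 in a library, in which 1 tag is 1 capped 5′ end, so genes can be compared without a length correction. Across the 38 libraries Txnip was read 1330 to 17744 times, Arrdc3 399 to 2793 times, Arrdc2 34 to 1675 times and Arrdc4 74 to 601 times. Txnip was the 368th most abundant of all clusters by mean TPM in experiment 1, Arrdc3 the 2214th, Arrdc2 the 5177th and Arrdc4 the 7174th. Of the slow-fibre markers, 7 of 7 had a cluster, with a summed level of 6178 to 17360 TPM in experiment 1. Of the fast glycolytic fibre markers, 10 of 10 had a cluster, with a summed level of 12033 to 27998 TPM, so these lists do not set slow fibres above fast ones.

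Txnip and Arrdc2 rose strongly in torpor and returned after refeeding, Arrdc3 did the same with a smaller amplitude, and Arrdc4 was not called between Pre and Mid but was higher after refeeding than in torpor. In experiment 1 edgeR called 3 of the 4 clusters higher in Mid than in Pre at a false discovery rate (FDR) under 0.05, where 30.2% of all clusters tested were called in either direction and 15.4% were higher. From Mid to Post it called all 4, with 3 lower and 1 higher, against 35.0% of all clusters. The median log2 change of the 4 members was 1.29 from Pre to Mid and -1.25 from Mid to Post, and over all clusters it was 0.01 and -0.01. In whole muscle a fall in the number of cells of a type and a fall in RNA per cell cannot be told apart.

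**Figure D1:**
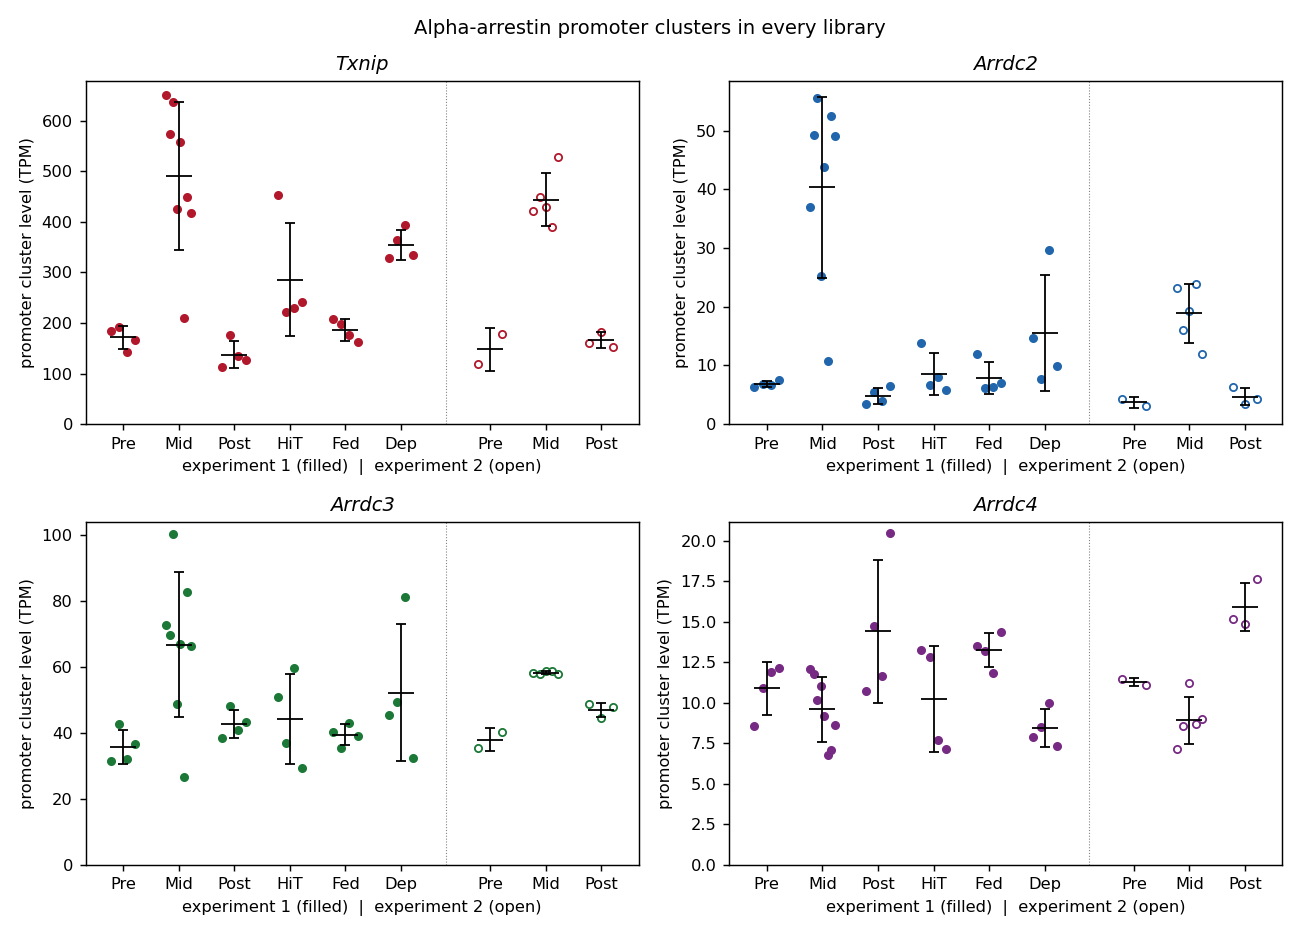
Level of each alpha-arrestin cluster in TPM (vertical axes from 0) in every library of experiment 1 (Pre, Mid, Post, HiT, Fed, Dep) and experiment 2 (Pre, Mid, Post); each point is 1 animal and the bars are the group mean and SD. Txnip and Arrdc2 stand highest in Mid with 1 low library (210 and 10.8 TPM). The Arrdc4 groups overlap, except that Dep lies below Fed and Post in experiment 1 and Post lies above Pre and Mid in experiment 2.

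Txnip, the thioredoxin-binding member, carried most of the family's tags. Its level was 185, 192, 142 and 167 TPM in the 4 Pre libraries, between 210 and 651 with a median of 503 in the 8 Mid libraries, and 113, 175, 135 and 126 in the 4 Post libraries. Every Mid library was above every Pre and every Post library. The share of all clusters whose groups separate in this way was not counted, here or for the separations given below. The change from Pre to Mid was 3.00-fold (log2 1.59 ± 0.20 SE, 95% interval 2.25 to 4.01, edgeR FDR 2.43e-06), the 190th highest of 10776 clusters. The decrease from Mid to Post was 3.57-fold (log2 -1.84 ± 0.21, edgeR FDR 2.03e-07).

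The other conditions placed Txnip between these extremes. It measured 453, 221, 229 and 241 TPM in the fasted warm HiT mice, 329, 363, 393 and 334 in the torpor-deprived Dep mice and 208, 198, 176 and 162 in the Fed mice. The HiT and Dep libraries were all above the Pre libraries and the Fed libraries, and both groups overlapped the Mid range, whose lowest value was 210. In TPM 1 library of the HiT group, HiT 1, stood far above the other 3. With the TMM scaling that the tests use, Txnip in HiT 1, 2, 3 and 4 was at 405, 229, 273 and 372. On that scale HiT 1 was still the highest but close to HiT 4. Txnip made up 73.8% to 80.0% of the members' summed level in Pre, 75.9% to 84.3% in Mid and 64.2% to 72.0% in Post.

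Arrdc2, an adaptor linked to receptor and transporter turnover, showed the widest range of the family. It measured 6.31, 6.89, 6.59 and 7.56 TPM in Pre, between 10.8 and 55.5 with a median of 46.5 in Mid, and 3.45, 5.47, 3.94 and 6.41 in Post. The Mid libraries did not overlap with Pre or with Post. The change from Pre to Mid was 6.24-fold (log2 2.64 ± 0.35 SE, 95% interval 3.78 to 10.3, edgeR FDR 3.9e-06), the 87th highest of all clusters. From Mid to Post the level fell 8.58-fold (log2 -3.10 ± 0.36, edgeR FDR 3.92e-07), the 30th lowest.

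In the other groups of experiment 1 Arrdc2 spread more widely than in Pre. It measured 13.8, 6.73, 7.95 and 5.78 TPM in HiT, 11.98, 6.20, 6.39 and 7.03 in Fed, and 14.7, 7.66, 29.7 and 9.86 in Dep. The Dep libraries were all above the Pre libraries, and 2 of them, at 14.7 and 29.7, were above the lowest Mid library. In TPM the highest HiT library, at 13.8, and the highest Fed library, at 11.98, were also above that Mid library, at 10.8. With TMM scaling the lowest Mid library was at 13.6, above the highest HiT and Fed libraries at 12.3 and 12.4. Arrdc2 was also the most variable member between animals of a group, with an edgeR coefficient of biological variation of 0.346 in experiment 1, higher than that of 93.6% of all clusters. The same coefficient was 0.237 for Arrdc3, 0.216 for Txnip and 0.154 for Arrdc4.

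Arrdc3, an adaptor known for its part in whole-body energy use, moved in the same directions at a higher base level than Arrdc2. It measured 31.5, 42.7, 32.1 and 36.6 TPM in Pre, between 26.6 and 100.4 with a median of 68.4 in Mid, and 38.4, 48.2, 40.9 and 43.4 in Post. The Mid range overlapped both other groups, because of 1 library at 26.6, and the next lowest Mid library, at 48.9, was above all Pre and Post libraries. The change from Pre to Mid was 1.98-fold (log2 0.99 ± 0.22 SE, 95% interval 1.45 to 2.70, edgeR FDR 0.00115). The decrease from Mid to Post was 1.57-fold (log2 -0.65 ± 0.21, edgeR FDR 0.0192), and this call was lost without Post 3 (edgeR FDR 0.0528) or without Post 4 (edgeR FDR 0.0575).

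Arrdc3 in the remaining groups was uneven between animals. It measured 50.9, 37.1, 59.9 and 29.5 TPM in HiT, 40.2, 35.4, 43.0 and 39.0 in Fed, and 45.5, 49.5, 81.4 and 32.4 in Dep. In HiT 2 of 4 libraries and in Dep 3 of 4 were above every Pre and every Fed library. In TPM all of these ranges overlapped with Mid, with Pre and with each other. With the TMM scaling that the tests use, Arrdc3 was at 42.4 to 78.7 in Dep and 38.3 to 71.4 in HiT. On that scale Pre was at 32.3 to 39.0 and Fed at 35.8 to 41.7, so every Dep library was above every Pre and every Fed library.

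Arrdc4, which with Txnip is the member most tied to glucose sensing, was not called from Pre to Mid. It measured 8.59, 10.9, 11.9 and 12.1 TPM in Pre, between 6.78 and 12.1 with a median of 9.69 in Mid, and 10.7, 14.7, 11.7 and 20.5 in Post. The Pre and Mid ranges overlapped over most of their span, and the Mid level was 0.928 times the Pre level (95% interval 0.763 to 1.13, edgeR FDR 0.595). After refeeding it was 1.46-fold higher than in Mid (log2 0.55 ± 0.13 SE, edgeR FDR 0.0024), with overlapping ranges in experiment 1. It measured 13.2, 12.8, 7.69 and 7.11 TPM in HiT, 13.5, 13.2, 11.9 and 14.4 in Fed, and 7.91, 8.53, 10.01 and 7.32 in Dep. Every Dep library was below every Fed and every Post library.

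The order of the 6 groups in experiment 1, by mean level after TMM scaling, was the same for Txnip and Arrdc2, with Mid highest, then Dep, HiT, Fed, Pre and Post. For Txnip the only neighbours in this order that differed were HiT and Fed (edgeR FDR 0.00446), and for Arrdc2 they were Mid and Dep (edgeR FDR 0.0322). For Arrdc3 the order was Mid, Dep, HiT, Post, Fed and Pre, and for Arrdc4 it was Post, Fed, HiT, Pre, Mid and Dep. No neighbours differed for these members, so their order is not resolved by the replicate spread. In experiment 2 Mid stood above Post and Post above Pre for Txnip, Arrdc2 and Arrdc3, with Mid differing from Post and Post not differing from Pre by the test.

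**Figure D2:**
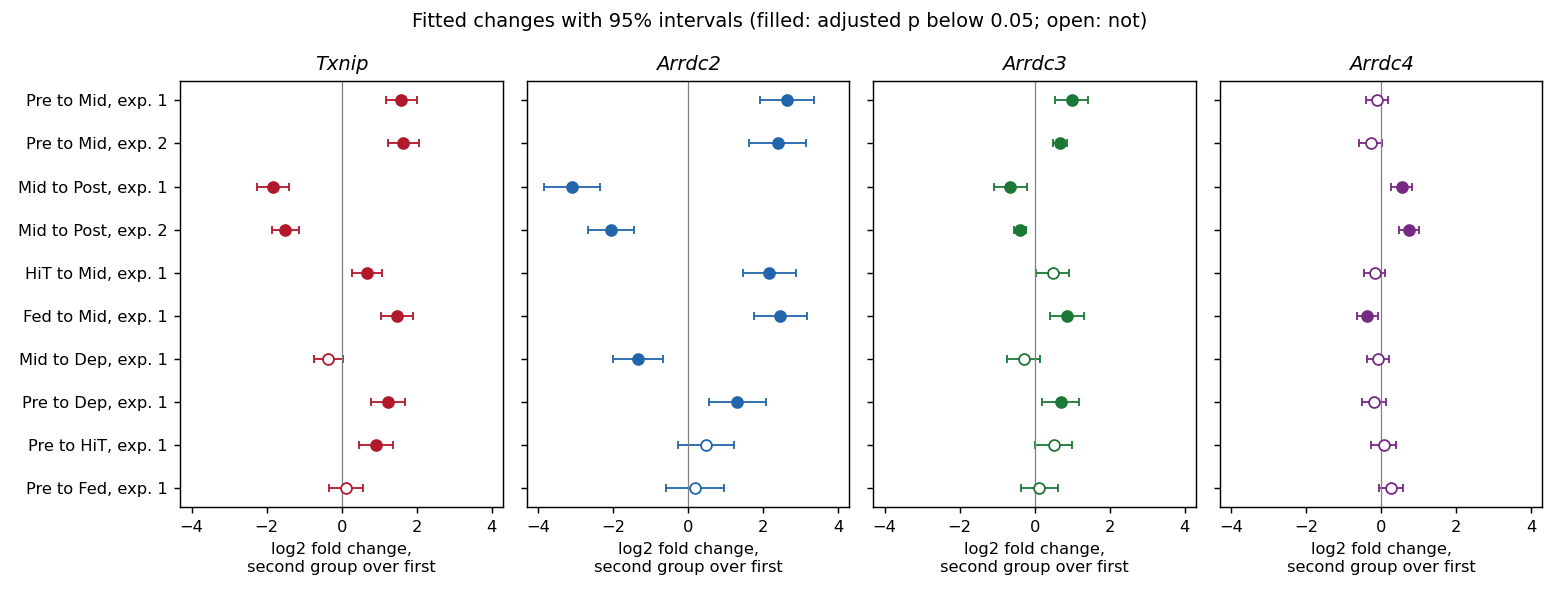
Fitted log2 fold change (horizontal axes) of each alpha-arrestin cluster with its 95% interval for the pairs of groups on the vertical axis; filled points have an edgeR adjusted p below 0.05 and open points do not. Arrdc2 has the longest arms, at 2.64 from Pre to Mid and -3.10 from Mid to Post in experiment 1, and each call of Arrdc4 is in a pair with Post or Fed.

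The HiT and Fed groups ask which part of the torpor level is seen with fasting in the warm or with cold while fed. All of these comparisons share the 8 Mid libraries, so their values are given side by side. Against HiT, Mid was higher for 2 of the 4 members, where 41.0% of all clusters were called and 19.2% were higher, and against Fed all 4 were called, with 3 higher and 1 lower, where 35.2% of all clusters were called. Arrdc2 was 4.48-fold higher in Mid than in HiT (log2 2.16 ± 0.34 SE, edgeR FDR 1.57e-05) and 5.50-fold higher than in Fed (log2 2.46 ± 0.35, edgeR FDR 6.64e-06). Txnip was 1.59-fold higher than in HiT (log2 0.67 ± 0.19, edgeR FDR 0.00682) and 2.78-fold higher than in Fed (log2 1.48 ± 0.20, edgeR FDR 4.28e-06).

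Arrdc3 and Arrdc4 were less clear against the same groups. Arrdc3 was 1.82-fold higher in Mid than in Fed (log2 0.87 ± 0.22 SE, edgeR FDR 0.00293). Against HiT its log2 difference was 0.48 ± 0.21 with an edgeR FDR of 0.0729, and without Mid 4, Mid 6 or HiT 3 the test passed (edgeR FDR 0.0359, 0.00795 and 0.0124). Arrdc4 was 1.29-fold lower in Mid than in Fed (log2 -0.37 ± 0.14, edgeR FDR 0.0357), a call that was lost when any 1 of Mid 5, 6, 7, 8 or Fed 1, 2, 4 was left out (edgeR FDR 0.0616 to 0.124). Against HiT it differed by log2 -0.18 (edgeR FDR 0.318).

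Markers of other cells moved in the same comparisons. Over all clusters edgeR called 35.2% from Fed to Mid, 41.0% from HiT to Mid and 30.2% from Pre to Mid. From Fed to Mid, 5 of 7 endothelial markers were lower and 1 was higher, with a summed level of 206 to 280 TPM in Fed and 165 to 217 in Mid. All 4 red blood cell markers with a cluster were lower, at 2717 to 12635 TPM in Fed and 2369 to 4465 in Mid. From HiT to Mid, 4 of 7 slow-fibre markers were higher, at 6178 to 11958 TPM in HiT and 10716 to 17360 in Mid. The low end in HiT was HiT 4 alone, with the other HiT libraries at 9870 to 11958. From Pre to Mid, 4 of 7 endothelial markers were lower and 1 was higher. Their part in the members' differences was not tested.

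Txnip was 1.88-fold higher in HiT than in Pre (log2 0.91 ± 0.22 SE, edgeR FDR 0.00198). It was the only member called there by edgeR and by DESeq2, against 33.4% of all clusters. By the methods the ambient temperature was set before day 1 and kept constant. Pre and HiT therefore differ in food, temperature and day of sampling, which cannot be told apart here. With a replicate block Arrdc3 was called as well (log2 0.47, edgeR FDR 0.0420). Without HiT 1 the log2 change of Txnip from Pre to HiT was 0.77 (edgeR FDR 0.0131) and its difference from HiT to Mid was 0.83 (edgeR FDR 0.0037). HiT 1 also had the highest summed level of macrophage markers, at 226 TPM against 78.4 to 162 in the other HiT libraries and 33.5 to 52.5 in Mid. For the list as a whole, 6 of 6 macrophage markers with a cluster were lower in Mid than in HiT, where 41.0% of all clusters were called. Their part in the Txnip difference was not tested.

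The Dep mice were fasted at low ambient temperature like the Mid mice but kept out of torpor by touching. Dep against Mid therefore holds the fast in common but not the handling, and torpor and touching cannot be told apart in it. The paper also reports that the metabolism of the Dep animals resembled that of the Mid animals that were metabolically not torpid. Only Arrdc2 was called, 2.52-fold lower in Dep (log2 -1.33 ± 0.32 SE, edgeR FDR 0.0322), 1 of 4 members, where 2.03% of all clusters were called and 0.872% were lower. This call was lost when Mid 2, Mid 3, Dep 1, Dep 2 or Dep 4 was left out (edgeR FDR 0.0541 to 0.143). Neutrophil markers moved in the same comparison: edgeR called all 4 with a cluster (S100a8, S100a9, Camp and Ngp; Ltf had none) higher in Dep and DESeq2 called 0. Their summed level was 0.292 to 117 TPM in Dep, with a median of 0.701 and the highest value in Dep 1, against 0.180 to 0.760 in Mid. Without Dep 1 the Arrdc2 FDR was 0.0668, and the part of these cells in the Arrdc2 difference was not tested. Txnip differed by log2 -0.35 ± 0.19 (95% interval -0.74 to 0.04, edgeR FDR 0.313), Arrdc3 by -0.29 (edgeR FDR 0.457) and Arrdc4 by -0.09 (edgeR FDR 0.772). The 95% interval for Arrdc3 ran from -0.72 to 0.14 and that for Arrdc4 from -0.37 to 0.20, so equal levels were not shown.

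Against the Pre mice, Dep was higher for the members that rose in torpor. From Pre to Dep, 3 of 4 members were higher (25.8% of all clusters called, 13.7% higher), with Txnip up 2.35-fold (log2 1.23 ± 0.22 SE, edgeR FDR 0.000156), Arrdc2 up 2.48-fold (log2 1.31 ± 0.37, edgeR FDR 0.00969) and Arrdc3 up 1.62-fold (log2 0.69 ± 0.24, edgeR FDR 0.0354). Arrdc2 and Arrdc3 rested in large part on Dep 3, whose levels of 29.7 and 81.4 TPM were far above those of the other Dep libraries. Without it the log2 changes were 0.91 (edgeR FDR 0.0690) and 0.50 (edgeR FDR 0.148). The Arrdc3 call was also lost without Pre 1, Pre 3, Pre 4 or Dep 2 (edgeR FDR 0.0542 to 0.0802). Dep 3 held 1947 TPM of summed adipocyte markers, against 363 to 651 in the other Dep libraries, and their part in the Arrdc2 and Arrdc3 levels was not tested. Txnip in Dep 3, at 393 TPM, was the highest of 4 values that spanned 329 to 393.

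In the remaining pairs of groups Txnip was called most often and Arrdc3 was not called by edgeR fitted over all 6 groups. From Fed to Dep, edgeR called 3 of 4 against 38.6% of all clusters: Txnip and Arrdc2 were higher (log2 1.12 and 1.13, edgeR FDR 0.000299 and 0.0171) and Arrdc4 was lower (log2 -0.46, edgeR FDR 0.0265). Arrdc3 differed by log2 0.57 (edgeR FDR 0.0609) and was called by DESeq2 (adjusted p = 0.0391), with only the groups compared (edgeR FDR 0.0268) and with a replicate block (edgeR FDR 0.0209). Without Dep 3 the Arrdc2 value was 0.73 (edgeR FDR 0.110), without Fed 3 it was 1.00 (edgeR FDR 0.0512), and the Arrdc4 call was lost without Fed 1, Fed 2, Dep 1 or Dep 4 (edgeR FDR 0.0577 to 0.0776). From Dep to Post, edgeR called 3 of 4 against 24.6%: Txnip and Arrdc2 were lower (log2 -1.48 and -1.77, edgeR FDR 1.56e-05 and 0.00091) and Arrdc4 was higher (log2 0.64, edgeR FDR 0.00402), while Arrdc3 differed by -0.36 (edgeR FDR 0.299). From HiT to Fed edgeR called Txnip alone (log2 -0.80, edgeR FDR 0.00446, against 43.2% of clusters), with Arrdc3 at -0.39 (edgeR FDR 0.198) and Arrdc2 at -0.30 (edgeR FDR 0.539). From HiT to Post edgeR again called Txnip alone (log2 -1.16, edgeR FDR 0.000221, against 29.2%), and DESeq2 called 2 members. The other one was Arrdc2, at log2 -0.94 (edgeR FDR 0.0622, DESeq2 adjusted p = 0.0325), which was also called by the likelihood ratio test (edgeR FDR 0.0367), with only the groups compared (edgeR FDR 0.0108) and with the block (edgeR FDR 0.0462). Arrdc3 differed there by -0.18 (edgeR FDR 0.627). Neither edgeR nor DESeq2 called a member from Pre to Post (1.85% of all clusters by edgeR), Pre to Fed (11.2%), Fed to Post (22.2%) or HiT to Dep (26.5%), and at an unadjusted edgeR p under 0.05 there were 1, 0, 0 and 1 members.

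Experiment 2 repeated the torpor and refeeding steps in other animals. Txnip measured 118 and 178 TPM in Pre, 421, 450, 430, 389 and 529 in Mid, and 161, 183 and 153 in Post. Arrdc2 measured 4.36 and 3.04 in Pre, 23.2, 15.98, 19.3, 23.9 and 11.9 in Mid, and 6.30, 3.45 and 4.20 in Post. In both genes every Mid library was above all Pre and Post libraries, as in experiment 1. With only 2 Pre libraries a cluster without a change can also separate in this way. The share of all clusters that did was not counted.

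Arrdc3 in experiment 2 measured 35.5 and 40.4 TPM in Pre, 58.4, 58.0, 58.7, 58.9 and 57.8 in Mid, and 48.7, 44.6 and 47.8 in Post, and here its 3 groups did not overlap. Arrdc4 measured 11.5 and 11.1 in Pre, 7.14, 8.54, 11.2, 8.66 and 9.02 in Mid, and 15.2, 14.9 and 17.6 in Post. Its Post libraries were above every Mid and Pre library, while 1 Mid library lay inside the Pre range.

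The tests in experiment 2 called 3 of 4 members higher from Pre to Mid, where 9.74% of all clusters were called and 5.3% were higher, and 4 of 4 from Mid to Post, where 16.4% were called. Arrdc2 was 5.23-fold higher in Mid than in Pre (log2 2.39 ± 0.34 SE, edgeR FDR 0.00276), Txnip 3.14-fold (log2 1.65 ± 0.19, edgeR FDR 0.001) and Arrdc3 1.60-fold (log2 0.68 ± 0.09, edgeR FDR 0.00153). Arrdc4 differed by log2 -0.28 (edgeR FDR 0.253). After refeeding Arrdc2 was 4.13-fold lower, Txnip 2.84-fold lower and Arrdc3 1.31-fold lower than in Mid (edgeR FDR 0.000758, 0.000188 and 0.00457), and Arrdc4 was 1.69-fold higher (edgeR FDR 0.002). From Pre to Post edgeR and DESeq2 called 0 of 4 members, with 2 at an unadjusted edgeR p under 0.05, against 0.111% of all clusters called by edgeR.

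The sequencing lane is part of these values. The Pre libraries and Mid 9 to 12 of experiment 2 shared lane 3, and Mid 13 and the Post libraries shared lane 4, so Pre and Post cannot be told apart from their lanes. Within lane 3 alone the Pre to Mid log2 changes were 2.51 for Arrdc2 (edgeR FDR 0.0050), 1.56 for Txnip (edgeR FDR 0.0048), 0.67 for Arrdc3 (edgeR FDR 0.0114) and -0.30 for Arrdc4 (edgeR FDR 0.339). With a lane term the Mid to Post changes were -1.49 for Arrdc2 (edgeR FDR 0.0391), -1.84 for Txnip (edgeR FDR 0.0013) and -0.47 for Arrdc3 (edgeR FDR 0.0462), and Arrdc4 at 0.65 was no longer called (edgeR FDR 0.107).

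The size of the changes did not differ detectably between the experiments. The Pre to Mid change in experiment 2 minus that in experiment 1 was log2 -0.25 ± 0.58 SE for Arrdc2, -0.30 ± 0.31 for Arrdc3, -0.17 ± 0.23 for Arrdc4 and 0.06 ± 0.30 for Txnip. For the Mid to Post change the widest difference was 1.06 ± 0.49 for Arrdc2 (edgeR p = 0.0401, edgeR FDR 0.773). For these tests of a difference edgeR called 0 of 10819 clusters, with 551 and 682 at an unadjusted p under 0.05, and DESeq2 called 12 and 1.

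**Figure D3:**
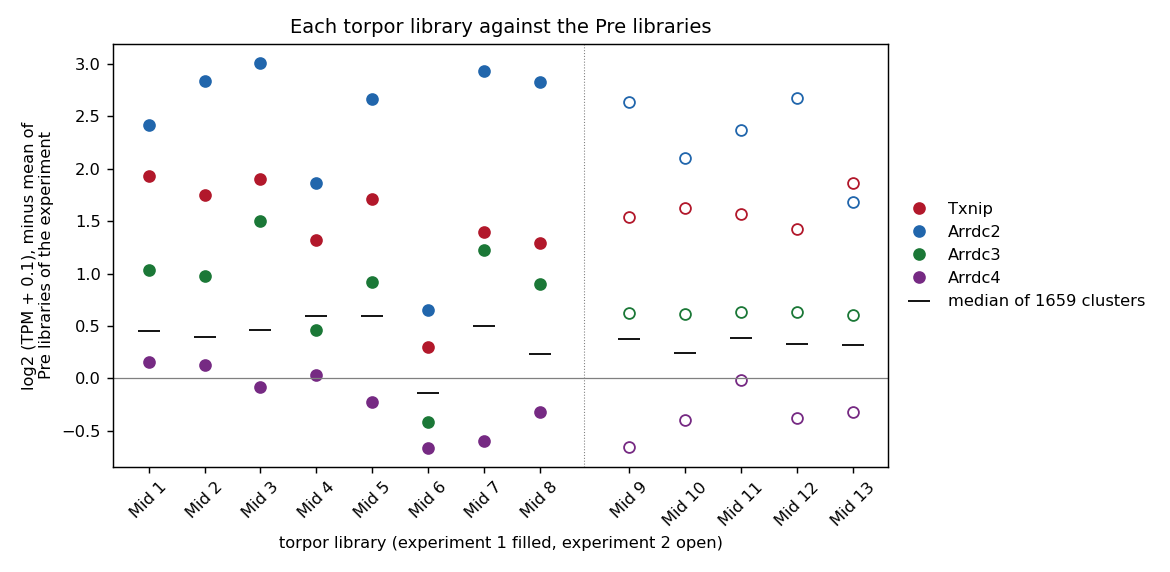
Each Mid library against the Pre libraries of its own experiment: log2 (TPM + 0.1) minus the mean of the Pre libraries (vertical axis) for the 4 clusters (points; filled in experiment 1, open in experiment 2), with a black bar for the median of the 1659 clusters called higher in Mid in experiment 1. On this TPM scale Mid 6 is the lowest of the 8 filled sets for all 4 members, and its bar, at -0.14, is the only one below 0.

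In TPM, Mid 6 was the lowest of the 8 Mid libraries of experiment 1 for all 4 members, at 210 TPM for Txnip, 10.8 for Arrdc2, 26.6 for Arrdc3 and 6.78 for Arrdc4. Over the Pre libraries these values were 1.23, 1.58, 0.751 and 0.632 times as high. The library also differed from the other Mid libraries over all clusters: its 10 most abundant clusters held 31.5% of the tags against 15.1% to 27.1%, and the clusters called higher in Mid had a median of -0.14 on the log2 scale over Pre, against 0.23 to 0.59 in the other 7. With the TMM scaling that the tests use, which allows for such a difference, Txnip in Mid 6 was at 265 tags for each 1000000, above the Pre range of 153 to 190 and below the other Mid libraries at 388 to 685. Arrdc2 was at 13.6, again between the Pre range of 6.29 to 7.23 and the other Mid libraries at 22.9 to 59.6, and Arrdc3, at 33.6, was inside the Pre range of 32.3 to 39.0. Arrdc4 was at 8.56, within the range of the other Mid libraries of 7.17 to 12.3, so under this scaling Mid 6 was not the lowest for that gene. Without Mid 6 and HiT 1 the counts of members called were the same from Pre to Mid and from Mid to Post, at 3 and 4.

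**Figure D4:**
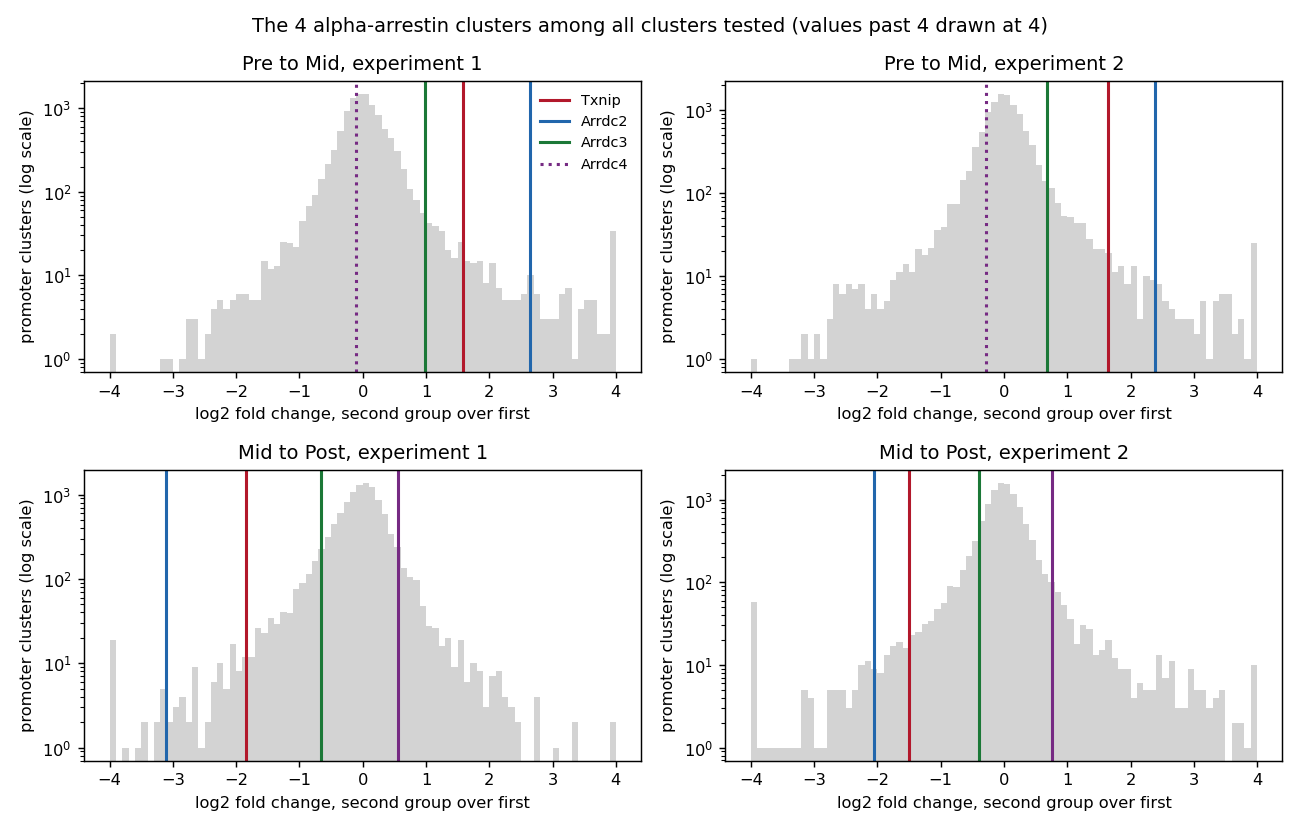
Histograms of the log2 fold change of all clusters tested (horizontal axes) with the number of clusters on a log scale (vertical axes), from Pre to Mid and from Mid to Post in both experiments; vertical lines mark the 4 alpha-arrestins, solid where called and dotted where not. Arrdc2 lies far out in the upper tail from Pre to Mid (2.64 and 2.39) and in the lower tail from Mid to Post (-3.10 and -2.05), and Arrdc4 lies near the middle in the first step (-0.11 and -0.28).

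Across libraries the levels of Arrdc2, Arrdc3 and Txnip varied together, and that of Arrdc4 was weakly inverse to them in experiment 1 and more strongly so in experiment 2. Over the 28 libraries of experiment 1, Pearson's r of log2 levels was 0.89 between Arrdc2 and Txnip, 0.80 between Arrdc2 and Arrdc3 and 0.73 between Arrdc3 and Txnip. Arrdc4 had r of -0.34 with Txnip, -0.25 with Arrdc2 and -0.03 with Arrdc3. Over the 10 libraries of experiment 2 the first 3 values were 0.87, 0.88 and 0.90 and the Arrdc4 values -0.76, -0.75 and -0.52. These are descriptions over libraries that share the group structure and the scaling, and no test was made on them. Of all clusters, 20 were more like Arrdc2 than Txnip was.

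The clusters whose levels followed each member most closely over the 28 libraries of experiment 1 came mainly from genes that also rose in torpor. For Arrdc2 they were Tsc22d3 (r = 0.94), a glucocorticoid-induced regulator also known as GILZ, Tfdp2 (0.93), a partner of E2F factors, and Foxo1 (0.93), a transcription factor active in fasting. Their log2 changes from Pre to Mid were 1.57, 1.06 and 1.14, all smaller than that of Arrdc2. For Txnip they were Sesn1 (0.94), a stress-induced inhibitor of mTORC1 signalling, Bcl2l1 (0.94), an inhibitor of cell death, and Cebpd (0.94), a transcription factor, with changes of 2.19, 1.66 and 2.47. For Arrdc3 they were Trp53inp1 (0.87), a p53 target, Spsb1 (0.84) and Tcp11l2 (0.83), with changes of 1.51, 1.80 and 1.54. The genes most like Arrdc4 were Sspn (0.87), a dystrophin complex protein, Vps26b (0.87), a retromer subunit, and Ano6 (0.87), a lipid scramblase, of which only Vps26b was called from Pre to Mid (log2 -0.35, edgeR FDR 0.0013). In experiment 2 the same pairs had r of 0.96, 0.92 and 0.86 for Arrdc2, 0.93, 0.96 and 0.94 for Txnip, 0.91, 0.84 and 0.79 for Arrdc3, and 0.69, 0.70 and 0.84 for Arrdc4.

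Among genes that encode the machinery around alpha-arrestins, the ubiquitin ligases had no call from Pre to Mid and the vesicle genes had a few. From Pre to Mid 30.2% of all clusters were called in experiment 1 and 9.74% in experiment 2, and the counts of the lists are to be read against these shares. Of the NEDD4 family ligases and adaptors that alpha-arrestins recruit, 7 of 11 had a cluster, and edgeR called 0 of 7 from Pre to Mid in either experiment, as did DESeq2. At an unadjusted edgeR p under 0.05 there were 0 of 7 in experiment 1 and 2 of 7 in experiment 2. Their median log2 change from Pre to Mid in experiment 1 was 0.11, against 0.01 over all clusters. Of the 13 ESCRT genes of vesicle budding, all with a cluster, 1 was higher and 2 were lower from Pre to Mid in experiment 1 and 1 was higher in experiment 2, with Hgs, which sorts ubiquitinated cargo, at log2 0.55 and its relative Stam2 at -0.36 in experiment 1. Of the beta-arrestins, Arrb1 changed by log2 -0.16 (edgeR FDR 0.314) and Arrb2 had no cluster, nor had the alpha-arrestin Arrdc5.

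The redox and glucose partners of Txnip were called in both directions. In the thioredoxin and peroxiredoxin system 17 of 18 genes had a cluster, of which 2 were higher and 2 lower from Pre to Mid in experiment 1, where 30.2% of all clusters were called, with a median of -0.04, and 1 was lower in experiment 2. Srxn1, sulfiredoxin, which repairs overoxidised peroxiredoxins, went from 32.1 ± 5.17 to 68.3 ± 27.8 TPM (log2 1.13, edgeR FDR 0.00112), and Prdx4, the peroxiredoxin of the endoplasmic reticulum, fell by 0.38 on the log2 scale. Txn1, the thioredoxin that Txnip binds, chosen for mention after its values were seen, fell by 0.25 (edgeR FDR 0.0308) in experiment 1 and measured 0.07 (edgeR FDR 0.661) in experiment 2. Of the glucose transporters 2 of 5 had a cluster: Slc2a1 (GLUT1) rose from 16.05 ± 2.99 to 32.5 ± 11.4 TPM and Slc2a4 (GLUT4) fell from 297 ± 16.1 to 238 ± 29.6 TPM (edgeR FDR 0.000165 and 0.0153) in experiment 1. In experiment 2 edgeR called neither, with Slc2a1 at 19.3 ± 5.16 TPM in Pre and 41.8 ± 15.4 in Mid (log2 1.16, edgeR FDR 0.0660) and Slc2a4 at log2 -0.05 (edgeR FDR 0.759), while DESeq2 called 1 of the 2.

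Of the MLX and MAX network factors, which include the glucose sensors MondoA (Mlxip) and ChREBP (Mlxipl), 7 of 8 had a cluster. From Pre to Mid in experiment 1, 4 were higher and 1 was lower, with Mnt at log2 0.58 and Mxd1 at 0.54, and from Mid to Post 5 were lower and 1 was higher. In experiment 2, 1 was higher and 1 lower from Pre to Mid by edgeR, and DESeq2 called 3. Over all clusters edgeR called 30.2% from Pre to Mid in experiment 1, 35.0% from Mid to Post, and 9.74% from Pre to Mid in experiment 2. All 9 regulators listed as upstream of alpha-arrestins had a cluster. From Pre to Mid 5 were higher and 1 was lower in both experiments, against the same 30.2% and 9.74% of all clusters, with Klf15, a fasting and glucocorticoid-responsive factor, going from 26.8 ± 0.884 to 76.2 ± 24.8 TPM and Ppara, the fatty acid sensor, from 27.8 ± 3.59 to 67.9 ± 14.6 TPM in experiment 1. The lower one was Nr3c1, the glucocorticoid receptor, named after its values were seen, at log2 -0.69 in experiment 1 and -0.88 in experiment 2. Between Mid and Dep, where Arrdc2 was called, edgeR and DESeq2 called 0 of the 9 regulators, with 2 at an unadjusted edgeR p under 0.05.

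**Figure D5:**
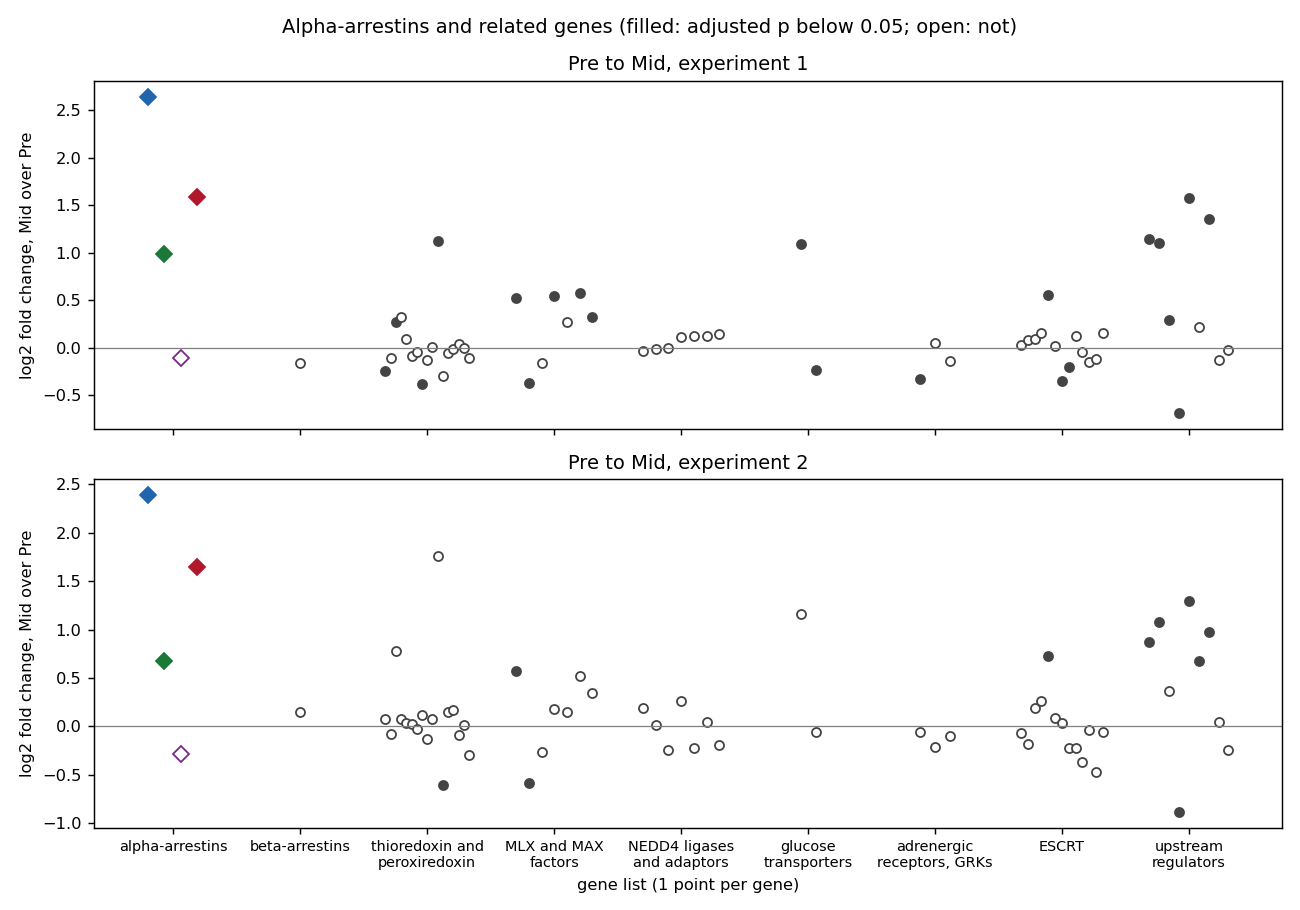
Log2 fold change from Pre to Mid (vertical axes) of each gene with a cluster in the lists of related genes, by list on the horizontal axis, in experiment 1 (upper panel) and experiment 2 (lower panel); diamonds are the alpha-arrestins, filled points have an edgeR adjusted p below 0.05 and open points do not. Arrdc2 is above every listed gene in both panels, at 2.64 and 2.39, and the NEDD4 genes lie near 0 in experiment 1 with none filled.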

How the data were processed

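CAGE libraries (nAnT-iCAGE, no amplification step) of mouse soleus were sequenced by the authors on 2 instruments, 1 for each experiment. Per the labels and the study's methods, the authors mapped reads to mm10 with BWA and HISAT2 (versions not given in the sources used here) and clustered 5′ ends into promoter clusters over all libraries. The deposited table holds counts, as raw tags per cluster and library, and the authors' TPM, which are tags scaled to 1000000 in the library. Counts were tested here with edgeR 4.0.16 (R 4.3.3): TMM scaling, quasi-likelihood F test with group as the only term, all libraries of an experiment together, every cluster with a tag, and Benjamini-Hochberg adjustment over all clusters. TPM served for levels, and for likeness as log2(TPM + 0.1). Libraries of a group agreed less well than sampling noise allows, so none was a duplicate. A tag count of n carries a counting error of at least its square root, and p-values cover the spread between animals.

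Gene names came from GENCODE vM21 5′ ends within 500 bp. The members and gene lists were chosen with earlier results of these data known. Genes named beside the members were the 3 clusters with the highest Pearson correlation to each member in experiment 1 and up to 2 called genes with the largest Pre to Mid change in each list. Alternatives were a likelihood ratio test, DESeq2 1.42.0, no TMM, upper-quartile scaling, a count filter, only the groups compared, a replicate block, an experiment or lane term, lane 3 alone and each library left out; leaving out Mid 6 and HiT 1 together was added after seeing the data. Replicate numbers did not pair libraries: deviations of same-numbered libraries had a mean correlation of -0.01 (60 pairs), against 0.00 for 260 others. The fits were tested on simulated counts. Protein sequences were not used here, and 1 gene list is not reported here.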

Additional observations from a re-analysis of the deposited data

Results flagged for a closer look

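Arrdc2 measured 11.98 TPM in Fed 1 against 6.20 to 7.03 in the other 3 Fed libraries, a gap of 0.856 of the group's range (Dixon's limit for 4 libraries 0.829). Txnip measured 453 TPM in HiT 1 against 221 to 241 in the other 3 HiT libraries, a gap of 0.913 of the range. With TMM scaling HiT 1 was at 405 and the other 3 were at 229 to 372, the highest of them being HiT 4. The gap was not tested on that scale. With 28 member-by-group sets examined, chance flags about 1 in 20.

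A second cluster lies inside the Txnip gene, at chr3:96559327-96561753 on the plus strand, with its peak 1280 bp from the nearest annotated 5′ end, and so fell outside the rule used in the report. Its mean level was 5.01 TPM in Pre, 18.9 in Mid, 4.84 in Post, 16.5 in HiT, 5.29 in Fed and 18.9 in Dep. It was higher in Mid than in Pre by log2 1.99 ± 0.36 SE (edgeR FDR 0.000158) in experiment 1 and by 1.65 (edgeR FDR 0.00272) in experiment 2. From HiT to Mid it differed by log2 -0.02 (95% interval -0.68 to 0.63, edgeR FDR 0.961), while the Txnip promoter differed by 0.67 (95% interval 0.28 to 1.07). From Pre to HiT the values were 2.01 ± 0.39 for the inner cluster and 0.91 ± 0.22 for the promoter. The difference between these clusters was not tested.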

How the results depend on the processing

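For member changes in the 5 comparisons with Mid in experiment 1, the 3 of experiment 2 and the 2 differences between experiments, 583 of 620 alternatives kept the direction and the side of the threshold, 24 lost a call, 7 gained one and 6 turned the direction of a value that was not called. From Mid to Dep the number of members called, 1 in the main analysis, was 0 without TMM (Arrdc2 log2 -1.38, edgeR FDR 0.142) and 0 with only the groups compared (-1.33, edgeR FDR 0.189), and ranged from 0 to 1 with 1 library left out. From Pre to Post in experiment 2 it was 1 with all 38 libraries and an experiment term (Arrdc4 0.47, edgeR FDR 0.0109). With 1 library left out the members called were 3 to 3 from Pre to Mid, 3 to 4 from Mid to Post, 2 to 3 from HiT to Mid, 3 to 4 from Fed to Mid and 10 to 15 over the other pairs (12 of 40 in the main analysis); in experiment 2 they were 3, 4 and 0. The reversed values were Arrdc4 with a replicate block, at 0.072 from Pre to Mid and 0.012 from HiT to Mid, and in experiment 2 from Pre to Post Arrdc2 with all 38 libraries (-0.13) and Txnip with all 38 libraries (-0.082), with a lane term (-0.29) and without Pre 5 (-0.10, in a range of -0.10 to 0.45 with 1 library left out). The causes were not tested. Arrdc3 from Mid to Post was not called without TMM (edgeR FDR 0.0680) or with only the groups compared (0.0562). Arrdc3 from HiT to Mid was called by DESeq2 (adjusted p = 0.0434) and with the block (0.55, edgeR FDR 0.0172). Arrdc4 from Fed to Mid was not called without TMM (edgeR FDR 0.0689) or with only the groups compared (0.0607). Without TMM the calls of Txnip from HiT to Fed (edgeR FDR 0.0613), Arrdc3 from Pre to Dep (0.183) and Arrdc2 from Fed to Dep (0.0625) were lost. Over the other 10 pairs of experiment 1, 15 member calls were lost and 14 gained under an alternative. These counts include a left-out library only where it belonged to the groups compared. With 1 such library left out the gains were Arrdc2 from HiT to Dep without Dep 2 (edgeR FDR 0.0377), Arrdc3 from Fed to Dep without Dep 4 (0.0328) and Arrdc4 from HiT to Post without Post 3 (0.0488). The last was also gained with upper-quartile scaling (0.0312). Libraries of other groups share the fit and can also move a call. For example, without Mid 6 Arrdc2 was called from HiT to Dep (edgeR FDR 0.0336) and from HiT to Post (0.0279), and Arrdc3 from Fed to Dep (0.0169). With Mid 6 and HiT 1 both left out, an alternative added after seeing the data, Arrdc3 was called from HiT to Mid (edgeR FDR 0.0378) and Arrdc4 was not from Fed to Mid (0.0616). This alternative also gained Arrdc2 from HiT to Dep (edgeR FDR 0.0330) and Arrdc3 from Fed to Dep (0.0289). In experiment 1 only Mid has replicate numbers 5 to 8, so every value with Mid under the replicate block rests on Mid 1 to 4. With this block, 3, 3, 3, 3 and 1 members were called in the 5 comparisons with Mid. Arrdc4 lost its call from Mid to Post (0.36, edgeR FDR 0.0558) and from Fed to Mid (-0.18, edgeR FDR 0.380). These changes can therefore come from the smaller set of Mid libraries as well as from the block. Without TMM the median of all clusters moved to 0.11 from HiT to Mid and -0.12 from Fed to Mid; over all clusters from Pre to Mid, 1458 rather than 3253 were called, and upper-quartile scaling gave 1282 higher and 2308 lower against 1659 and 1594. From Mid to Dep 219 clusters were called, 479 by DESeq2 and 9 without TMM. Depth was lowest in experiment 2, where Arrdc2 rested on as few as 34 tags.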

Other observations

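In experiment 2 the 5 Mid libraries gave nearly the same Arrdc3 level in TPM, with an SD of 0.80% of the mean, smaller than the 3.57% that counting 585 to 1256 tags allows. With TMM scaling the same libraries were wider apart, at 60.4 to 67.2 with a mean of 63.8 and an SD of 2.90. Among the 36 sets of a member in a group, Arrdc3 in these Mid libraries and Arrdc4 in the 2 Pre libraries of experiment 2 (2.39% against 8.89%) were the 2 whose spread in TPM was below counting error. The sets were not compared with counting error on the TMM scale.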
